A study of Mus musculus with 7 samples.

Results

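The circadian clock genes Per1, Per2, Per3, Cry1, Cry2, Clock, Arntl (also called Bmal1), Npas2, Dbp and Bhlhe40 were chosen by name, 10 of the 21900 protein-coding genes of the mouse annotation. N6-methyladenosine (m6A) was mapped by MeRIP-Seq, in which an antibody pulls methylated mRNA fragments out of a pool of fragments (the input), and a peak is a stretch of mRNA where the immunoprecipitate (IP) outweighs the input. Muscle came from METTL3 cKO mice (Pax7CreERT2; METTL3 flox/flox) and from CTL mice (Pax7CreERT2; METTL3 wt/wt), both of C57BL/6 background. Mice of both genotypes received tamoxifen for 5 consecutive days and then CTX, a toxin that injures the fibers, and the libraries are labelled as day 2. METTL3 is the catalytic subunit of the m6A writer complex, and the Pax7-driven Cre is meant to delete it in muscle stem cells, while whole muscle also holds other cell types. The age, the number of mice per library and the time of day at which muscle was taken are not given in the sources used here. C2C12, a mouse myoblast line, had 2 IP libraries and 1 input library. GEO's labels give the input as normal and both IP libraries as knockout. The paper knocked down METTL3 in C2C12 cells, but does not say whether the cells of this MeRIP-Seq were knocked down. Whether the IP libraries came from METTL3-depleted cells is therefore unknown. Per the labels' protocol, C2C12 cells were first grown and then kept for 3 days in differentiation medium.

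The deposited tables limit what can be compared. The muscle table holds 5412 peaks from the authors' test between the genotypes, so a gene without a listed peak may still carry m6A. It gives 1 fold enrichment per peak for all muscle libraries together, and no value per genotype. The C2C12 list holds 5433 peaks without any peak height. No value has a replicate error, the depth of the libraries is unknown, and no test was made. The labels call the muscle samples muscle stem cell. Peaks were listed for 6 of 8 stem cell and myoblast markers (Pax7 and Myod1 among them), for 1 of 8 myofibre markers (Ttn), 2 of 6 leukocyte markers (Ptprc and Itgam), 2 of 3 fibroblast markers and 1 of 3 endothelial markers. For comparison, 16.9% of all protein-coding genes were listed in muscle and 17.6% in C2C12. The C2C12 list held 3 of 8 stem cell and myoblast markers, 3 of 3 fibroblast markers and none of the others. A listed peak is not a level of expression. Mettl3 itself has no peak in either table, and the deletion could not be checked from them.

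The clock is a feedback loop of transcription that runs in nearly every cell, muscle fibers and muscle stem cells included. CLOCK, or its relative NPAS2, pairs with BMAL1 (the product of Arntl) and activates Per and Cry genes through E-box elements, and PER and CRY proteins then return to the nucleus and repress that pair. BHLHE40 (DEC1) also binds E-boxes and represses the same targets, and DBP drives rhythmic genes through D-box elements. Several of these mRNAs are short-lived and rise and fall over the day.

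Of the 10 clock genes, 2 were listed in the muscle table (Per1 and Bhlhe40), against 16.9% of all protein-coding genes. In the C2C12 list 2 were found (Per2 and Bhlhe40), where the share of all protein-coding genes was 17.6%. Bhlhe40 was the 1 clock gene in both, and 7.32% of protein-coding genes were in both. These counts stand close to those of genes at large. The activators Clock, Npas2 and Arntl, the repressors Per3, Cry1 and Cry2, and the output factor Dbp were in neither list, 7 genes in all. No muscle peak under any other gene name lay inside the spans of these 7 genes, which run from 5104 bp (Dbp) to 169539 bp (Npas2), or inside that of Per2. Protein-coding genes in the muscle table had a median span of 28950 bp, and 6 of the 7 absent genes are longer than that. These spans include introns, and the lengths of the mRNAs were not compared.

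**Figure D1:**
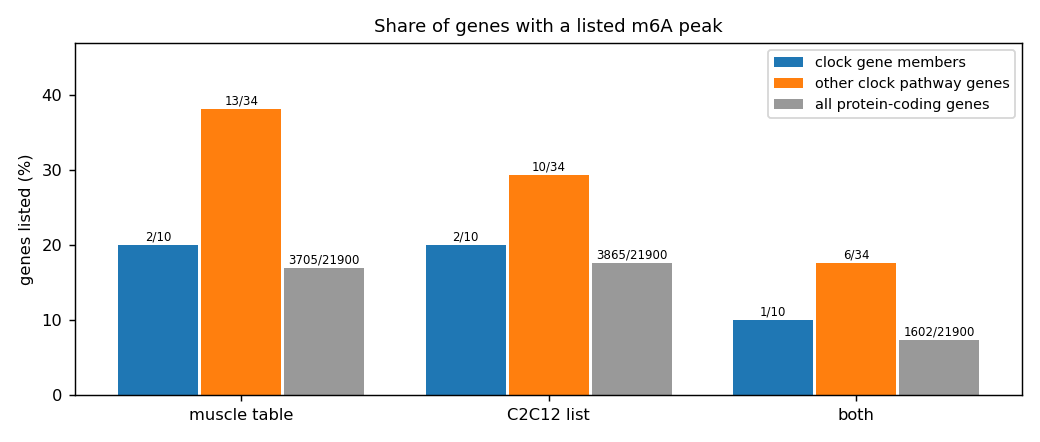
Share of genes with a listed m6A peak (y axis, percent) in the muscle table, the C2C12 list and both, for the 10 clock genes, 34 other clock pathway genes and the 21900 protein-coding genes; the number listed stands above each bar. The clock genes stood at 2, 2 and 1 of 10, near the share of all genes, and the other pathway genes at 13, 10 and 6 of 34.

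Per1, a core repressor that is also induced rapidly by light, stress and hormone signals, had 1 muscle peak. It lay in the coding sequence (CDS) on the + strand of chromosome 11, from 69102870 to 69105752 (GRCm38), 4213 bp before the end of the gene. Its fold enrichment was 27.4 (p-value listed for the peak 5e-32), which is rank 1887 of 5412 peaks. Among the 1726 CDS peaks, whose median was 26.6, it was rank 850, so Per1 sat in the middle of its class. What set the peak apart in shape was its spread over 9 exon blocks of 62 to 363 bp, 1409 bp of exon within 2883 bp of genome. Only 3 of the 5412 muscle peaks had at least as many blocks, that of Per1 included, and 87.1% lay in 1 block.

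m6A is deposited at adenosines in a short sequence context of which GGAC is the best-known form, and the table lists GGAC sites for each peak. The Per1 peak held 9 of them, a number reached by 5.91% of all muscle peaks. They were found in 7 of the 9 blocks, with at most 2 in any block, and none in the seventh and eighth. Its density was 6.39 sites per 1000 bp of exon, against 5.04 over all CDS peaks. In C2C12 no peak was listed for Per1.

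Bhlhe40 had 2 muscle peaks, on the + strand of chromosome 6. The stronger lay in the CDS from 108664468 to 108665906 (GRCm38), 1439 bp in a single exon block. With a fold enrichment of 84.2 it was rank 961 of 5412 peaks and rank 508 of 1726 CDS peaks. The p-value of this peak is listed as 0, below the smallest number the table stores. The weaker peak was placed in the 5′UTR, from 108660629 to 108660869, and opened at the first base of the gene. Its fold enrichment was 11.6 (listed p-value 1e-44), rank 118 of the 278 5′UTR peaks, which had a median of 9.54. The gene 0610040F04Rik overlaps the 5′UTR peak. The paper names a stranded library kit, but whether the authors' counting used strand is not stated. Reads of the overlapping genes therefore cannot be told apart there from the deposited values.

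GGAC sites were dense in the CDS peak of Bhlhe40. It held 11, a number reached by 3.75% of muscle peaks, or 7.64 per 1000 bp. The sites fell into groups. The first 7 lay within 304 bp, from 3961 to 4265 bp after the start of the transcript. Distances from the start run along the genome, introns included. A stretch of 620 bp without a site separated these 7 from the other 4, which lay within 268 bp. The 5′UTR peak held 1 site, 84 bp after the start. Together the 3 muscle peaks of Per1 and Bhlhe40 held 21 sites, 6.8 per 1000 bp of exon against 4.63 over all muscle peaks, and all 3 held at least 1 site where 70.6% of all peaks did. Among CDS peaks, the class of 2 of the 3, 84.5% held a site, at 5.04 sites per 1000 bp. The median exon length of CDS peaks was 600 bp, and those of Per1 and Bhlhe40 were longer, at 1409 and 1439 bp. When the genomic span of the 3 peaks was used as the length, introns included, the density was 4.6 against 3.34 over all muscle peaks.

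**Figure D2:**
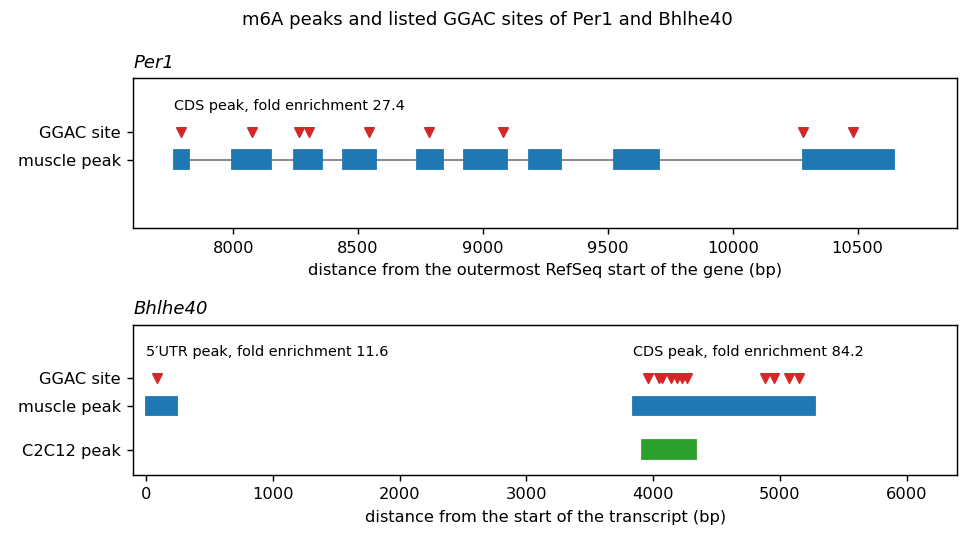
Exon blocks of the muscle peaks (blue), listed GGAC sites (red) and the C2C12 peak (green) of Per1 and Bhlhe40, by distance in bp from the outermost RefSeq start of Per1 and from the start of the Bhlhe40 transcript. Distances run along the genome, introns included. The Per1 peak spreads over 9 blocks, while the 11 sites of the Bhlhe40 CDS peak lie in groups of 7 and 4, with the C2C12 peak over the first group.

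In C2C12, Bhlhe40 had 1 peak of 427 bp in a coding exon, longer than 78.4% of the C2C12 peaks. The C2C12 positions are not on GRCm38, since 9.3% of the peaks lie inside the GRCm38 span of their gene against 95.6% of the muscle peaks, although GEO's labels name mm10 for all samples. The lists were therefore set side by side by distance from the transcription start site, which the C2C12 list gives from the centre of each peak (for 1021 of 1023 transcripts with several peaks, the same start site came out within 1 bp). The Bhlhe40 peak ran from 3913 to 4339 bp in C2C12 and the muscle CDS peak from 3839 to 5277 bp, so the whole C2C12 peak fell within the muscle peak. It covered 7 of the 11 GGAC sites, those of the first group. These distances run along the genome, introns included, and the comparison assumes the same start site and intron length on both builds. Such an overlap was common. Of the 422 genes in both lists with a single RefSeq transcript, peaks overlapped in 70.1%. No 5′UTR peak was listed for Bhlhe40 in C2C12.

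Per2, a core repressor like Per1, was listed in C2C12 alone. Its 1 peak was annotated to an intron, 16903 bp from the start site of a gene that spans 43375 bp. At 200 bp it had the shortest length in the list, which is the length of 305 peaks (5.61%) and of 12.4% of the intron peaks. Without intron and intergenic peaks, Bhlhe40 was the only clock gene left in the C2C12 list, which then held 15.9% of protein-coding genes.

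Beyond the core genes, 34 other genes of the clock pathway were examined: further repressors and D-box factors, the kinases and ubiquitin ligases that set the stability of PER and CRY, and coactivators and corepressors. Of the 34, 13 (38.2%) were listed in muscle, 10 (29.4%) in C2C12 and 6 (17.6%) in both, above the shares of all protein-coding genes given before. All protein-coding genes, expressed in these cells or not, are the base of those shares, and the part that expression plays was not tested. The list was chosen with earlier results of these data known, and the part that this choice plays was not tested either. The strongest muscle peaks of the 13 genes had a median fold enrichment of 13.7, from 2.31 to 604, against 19.3 over all genes in the table, and 6 of the 13 were at or above that median. Per1 and Bhlhe40 had a median of 55.8, both above it.

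The transcription factors closest to the core loop had their strongest peak in the CDS. Bhlhe41 (DEC2), the paralog of Bhlhe40, had a CDS peak at a fold enrichment of 138 with 7 GGAC sites and a 5′UTR peak at 15 with 4 sites. In C2C12 it had 1 coding-exon peak of 203 bp, at a genomic distance of 1871 to 2073 bp from the start. That was again within the distance range of the muscle CDS peak (1598 to 2828 bp). Nr1d2 (REV-ERB beta), a repressor of Arntl, had a CDS peak at 53.8, and its C2C12 peak of 381 bp lay wholly within the distance range of that muscle peak.

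The highest fold enrichments among these genes were those of Crebbp and Ep300, acetyltransferases that serve as coactivators. Crebbp had a CDS peak at 604, rank 85 of 5412, with 15 GGAC sites, and Ep300 one at 308, rank 243, with 8 sites. The coactivator Ncoa3, named after its values were seen, reached 9.8 in a 3′UTR peak and 4.11 in its CDS peak. In C2C12 Crebbp had 4 peaks and Ep300 5, and 2.04% of the genes in that list had 4 or more. The casein kinases in both lists were lower. Csnk1d, a kinase of PER, had a 3′UTR peak at 9.66, near the median of all 3′UTR peaks, 9.94. Csnk1a1, another casein kinase, was lowest, with a 3′UTR peak at 2.31. In C2C12, Csnk1d was again listed in the 3′UTR and Csnk1a1 in an intron with 200 bp. By distance from the start site, 5 of the 7 core and other clock genes in both lists had overlapping peaks (Bhlhe40, Bhlhe41, Nr1d2, Crebbp and Ep300), and 885 of 1614 genes (54.8%) did so when the outermost RefSeq start was used for every gene.

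**Figure D3:**
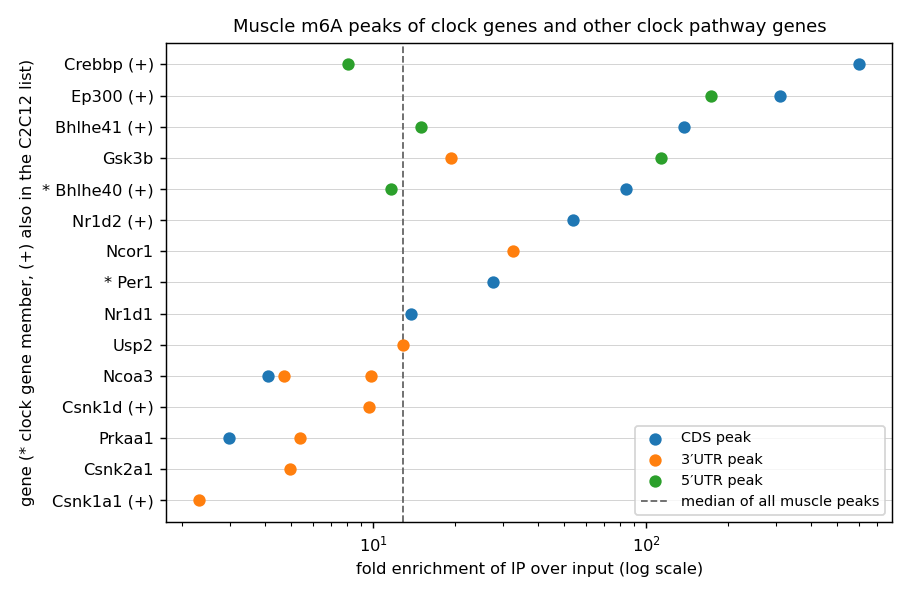
Fold enrichment of IP over input (x axis, log scale) of every muscle peak of the 2 listed clock genes (marked by an asterisk) and the 13 other clock pathway genes, coloured by class; (+) marks genes also in the C2C12 list and the dashed line the median of all muscle peaks, 12.9. The values run from 2.31 for Csnk1a1 to 604 for Crebbp, with Per1 at 27.4 and the CDS peak of Bhlhe40 at 84.2.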

How the data were processed

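m6A MeRIP-Seq was performed on muscle (1 IP library and 1 input library per genotype) and on C2C12 cells (2 IP libraries and 1 input library). The submitters' processing notes name mm10, TopHat and MACS2, without versions or roles. For each muscle peak the authors deposited a position, an annotation class, the GGAC sites, a p-value and a fold enrichment of IP over input, which is a ratio, with 1 value for all muscle libraries together. Further columns hold the authors' own test between the genotypes (fold changes and p-values) and were not used here. The C2C12 list that the authors deposited gives positions, classes and distances to the transcription start site. Depth is unknown, since neither table holds counts.

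Python 3.11.15 with pandas 2.3.3, numpy 2.4.6 and matplotlib 3.10.9 was used. Genes were matched to RefSeq (GRCm38.p6) by current or older symbol (3808 of 3980 muscle symbols) or by transcript (3930 of 3970 C2C12 symbols). The 10 clock genes and the list of 35 other clock pathway genes, 1 of which is not reported here and enters no count of that list, were chosen with earlier results of these data known. Named from the latter were the genes in both tables and those with the highest and lowest fold enrichment in muscle. Muscle positions were written 1-based. The GGAC positions count from 0, since after 1 was added all 7324 sites on the + strand lay in the exon blocks of their peaks. The functions used were tested on simulated data. With 1 library of each kind per genotype and pooled tables, no test between groups was made. Alternatives were tried for symbol matching, weak peaks, peak class, peak length and the peak that stands for a gene.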

Additional observations from a re-analysis of the deposited data

How the results depend on the processing

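Of 19 alternatives, 13 left the value as it was or close to it and 6 moved it. The C2C12 list held 1 clock gene in place of 2 without intron and intergenic peaks (15.9% of protein-coding genes were left), and 1 with peaks at or above the median length of 286 bp (2189 of 21900 were left), since Per2 rests on an intron peak of 200 bp. Averaging the peaks of each gene took the median fold enrichment of Per1 and Bhlhe40 from 55.8 to 37.6, because the 5′UTR peak of Bhlhe40 was then counted. The corresponding median over all genes was 16.8. GGAC sites per 1000 bp went from 6.8 to 4.6 over the genomic span, which includes introns of Per1. Keeping only muscle peaks with a fold enrichment of 12.9 (the median) or more left 8 of the 13 other pathway genes, and 10.1% of protein-coding genes in place of 16.9%. Taking the outermost RefSeq start for all genes, added after seeing the data, took the share of genes with overlapping peaks from 70.1% to 54.8%. The 427 bp overlap of the Bhlhe40 peaks could not change, since that gene has 1 RefSeq transcript and so the same start. It is counted among the 13 all the same. Symbol matching changed no count. No paired analysis was possible because each genotype has 1 library of each kind and no table gives values of single libraries, and for the same reason the C2C12 IP libraries could not be left out in turn.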

Other observations

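Bhlhe40, Bhlhe41, Crebbp and Ep300 each had a CDS peak and a 5′UTR peak in muscle, which was noticed after the values were seen. They are 4 of the 15 core and other clock genes listed in muscle (26.7%). Bhlhe40 and Bhlhe41 are paralogs, Crebbp and Ep300 are both coactivator acetyltransferases, and the genes were chosen with earlier results of these data known. Of all 3975 genes listed there, 59 (1.48%) had both. In all 4 the CDS peak had the higher fold enrichment (84.2 against 11.6 for Bhlhe40, 138 against 15 for Bhlhe41, 604 against 8.1 for Crebbp and 308 against 172 for Ep300). Muscle peaks at large had the same order, with a median of 26.6 for CDS peaks and 9.54 for 5′UTR peaks. In C2C12 these 4 genes had coding-exon peaks, while no peak classed as 5′UTR was listed for any of them. Ep300 also had a C2C12 peak of 200 bp at the start site, classed as upstream. By distance from that site it ran from -100 to 99 bp, within the muscle 5′UTR peak of Ep300 (-828 to 701 bp).

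After the C2C12 list was searched, 4 other pathway genes were found there and not in the muscle table: Nfil3 and Tef, which bind D-box elements, with 1 coding-exon peak each, and Csnk1e and Fbxw11, which act on the stability of PER proteins, with 1 3′UTR peak each. These are 11.8% of the 34 genes, and 10.3% of all protein-coding genes were likewise in the C2C12 list alone.

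The listed GGAC positions were not equally usable. On the + strand, where Per1 and Bhlhe40 lie, all 2046 sites in peaks of several exon blocks were inside a block, but on the - strand 1161 of 2068 (56.1%) were. The CDS peak of Crebbp, with 15 listed sites, has 2 blocks on the - strand and so belongs to the latter kind.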
